A study of Mus musculus with 24 samples.

Results

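SMA mice and wild-type (WT) mice were compared in the spinal cord, in its lateral motor column (LMC), on single-colour Illumina mouse bead arrays. The 6 arrays were chosen by their titles, 3 SMA and 3 WT, from a series of 24 that also holds the medial motor column (MMC), the raphe and the dorsal root ganglion (DRG). All 6 came from FVB mice at postnatal day 4, and the design text calls the 3 arrays of a group biological replicates. SMA was taken to stand for spinal muscular atrophy. The allele of the SMA mice, any transgene they carry, the makeup of the WT controls, whether animals were pooled and the way the column was collected are not given in the sources used here. The RNA was amplified with a system made for very small samples before labelling. All LMC arrays shared 1 chip, with the WT arrays in its first 3 positions and the SMA arrays in its last 3, so position and genotype cannot be told apart.

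Spinal muscular atrophy is a disease of motor neurons caused by too little survival motor neuron (SMN) protein, which loads the Sm ring of proteins onto the small nuclear RNAs of the spliceosome. Neurons of the lateral column supply the limb muscles, whereas those of the medial column supply the muscles along the trunk. The transcription factor p53, held down by Mdm2 and Mdm4, switches on genes of cell cycle arrest, DNA repair and apoptosis when cells are stressed.

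A gene's level is given as a normalised log2 signal, on which 1 unit is a doubling, and a difference is SMA minus WT. Testing required a detection p, the probability of such a signal from background, under 0.05 on every array of 1 genotype or of both. This held for 9080 genes, of which 7274 were above background on all 6 arrays. In the linear model of limma, 2 of the 9080 genes passed an adjusted p of 0.05 (0.022%), 1 lower and 1 higher in SMA. At an unadjusted p under 0.05 there were 284 genes higher (3.13%) and 337 lower (3.71%). The 3 SMA values all lay above the 3 WT values for 531 genes (5.85%) and all below them for 408 (4.49%). The median difference over all genes tested was 0.03 and the median SE 0.40.

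SMA array 2 stood apart from the other 5. It had 33.7% of probes above background against 40.6 to 42.9% on the others. Its correlation with them was 0.878 to 0.892, whereas the other pairs lay between 0.953 and 0.972. On it 342 genes lay more than 2 log2 units under the lowest of the other 5 arrays, all of which detected them, and the same count on each of the other arrays was 0 to 2. The mean share of probes above background was 39.2 ± 4.75% in SMA and 42.0 ± 1.23% in WT (SD, n = 3, exact two-sided permutation p = 0.5, where 0.1 is the smallest possible). Results are therefore given with and without this array. Without it 9545 genes were tested and 3 passed (0.0314%), with 165 genes higher (1.73%) and 113 lower (1.18%) at an unadjusted p under 0.05. The female transcript Xist was above background on 1 array of each genotype, so sex was balanced between the groups as far as this gene shows.

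**Figure D1:**
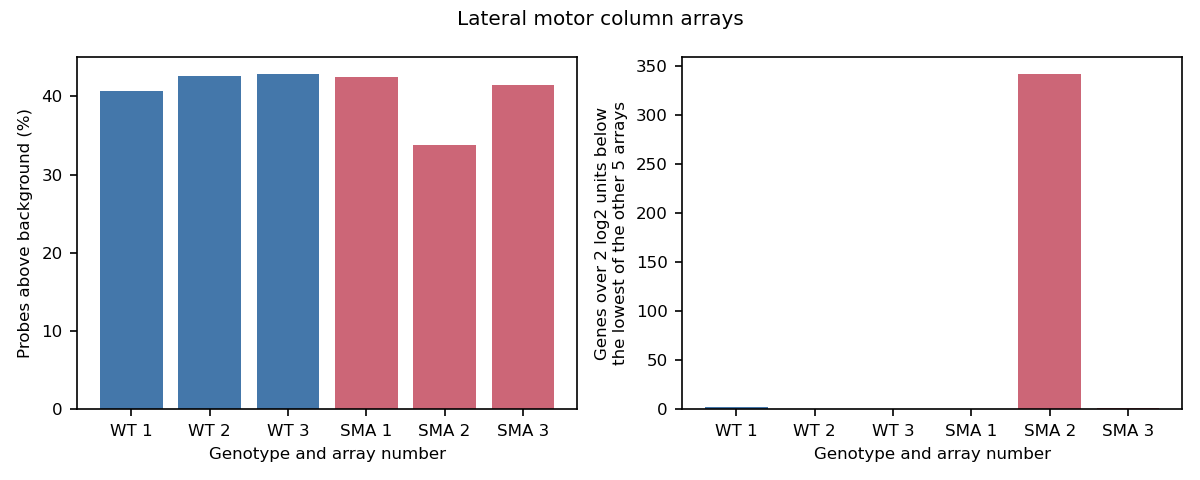
Left, percent of probes with a detection p under 0.05 on each LMC array. Right, number of genes more than 2 log2 units below the lowest of the other 5 arrays. SMA array 2 had 33.7% of probes above background and 342 such genes, against at most 2 on any other array.

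The label of the column was checked against its markers. Of 20 motor neuron markers with a probe, 18 were above background on all 6 arrays. Chat, the acetylcholine-synthesising enzyme, stood at 8.62, 7.79 and 7.70 on WT arrays 1 to 3 and at 7.85, 8.40 and 7.73 on SMA arrays 1 to 3, with the groups mixed. Its difference was -0.04 (95% interval -0.98 to 0.90, adjusted p = 0.990). The motor neuron homeobox genes Isl1 and Mnx1, named here as defining markers, had WT means of 9.73 and 9.27. Aldh1a2, the retinaldehyde dehydrogenase typical of limb-level lateral columns, had a WT mean of 9.40 in LMC and 5.60 in MMC, and Foxp1, the factor that specifies the lateral column, 8.47 and 7.06. These samples also held other cells. In WT the oligodendrocyte gene Mbp stood at 8.47 and the astrocyte gene Gfap at 7.39, and 11 of 14 astrocyte and 10 of 15 oligodendrocyte lineage markers were above background on all 6 arrays. In such bulk samples fewer cells of a type and less RNA per cell cannot be told apart. Of 12 sensory neuron markers with a probe, 9 were above background on 0 of the 6 arrays, Avil among them. In the same list 2 were above background on all 6, Pvalb (WT mean 8.37) and Tac1 (6.66), of which Tac1 is also on the interneuron list.

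Smn1, which encodes the SMN protein in mice, was detected in each WT library and on no array from SMA mice. It stood at 10.38, 9.45 and 9.91 in WT and at 4.51, 4.85 and 4.98 in SMA, so the labels of all 6 arrays matched its level. It fell at least 21.9-fold (adjusted p = 2.86e-09), and the call held without SMA array 2 (adjusted p = 3.27e-08). This bound sets the WT mean against a floor, which for each SMA array is the lowest level of any probe above background on it, or the gene's own level where that is higher. Every later "at least" has the same meaning. Smn1 has 1 probe, and where it lies in the transcript was not analysed here.

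Crip2 was the only gene that passed the threshold with a higher level in SMA. It encodes a small LIM-domain protein, a member of a family of zinc-binding adaptors. It stood at 6.29, 6.56 and 7.0 on WT arrays 1 to 3 and at 8.36, 8.68 and 7.83 on SMA arrays 1 to 3. All SMA arrays lay above all WT arrays. Crip2 rose by 1.67 (SE 0.24, adjusted p = 0.00234), and by 1.48 without SMA array 2 (adjusted p = 0.0161). The call held in 17 of 23 alternative settings. It was lost in the other 6, among them with only the 6 LMC arrays in the model, where adjusted p was 0.859, with the 12 motor column arrays (0.835) and with the authors' deposited normalized values, on which the difference was 0.64 (adjusted p = 0.274). Crip2 also stood 1.84 higher in SMA than in WT in MMC, against -0.09 in DRG and 0.36 in the raphe. Its difference in LMC minus that in MMC was -0.17 (SE 0.34, adjusted p = 0.910), and minus the mean of DRG and raphe it was 1.54 (adjusted p = 0.166). Of the other 13 LIM-domain genes tested none passed, and 7 of them lay above 0 (6 without SMA array 2). The 1 of smallest p among them, the LIM protein gene Csrp2, had a difference of -0.47.

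**Figure D2:**
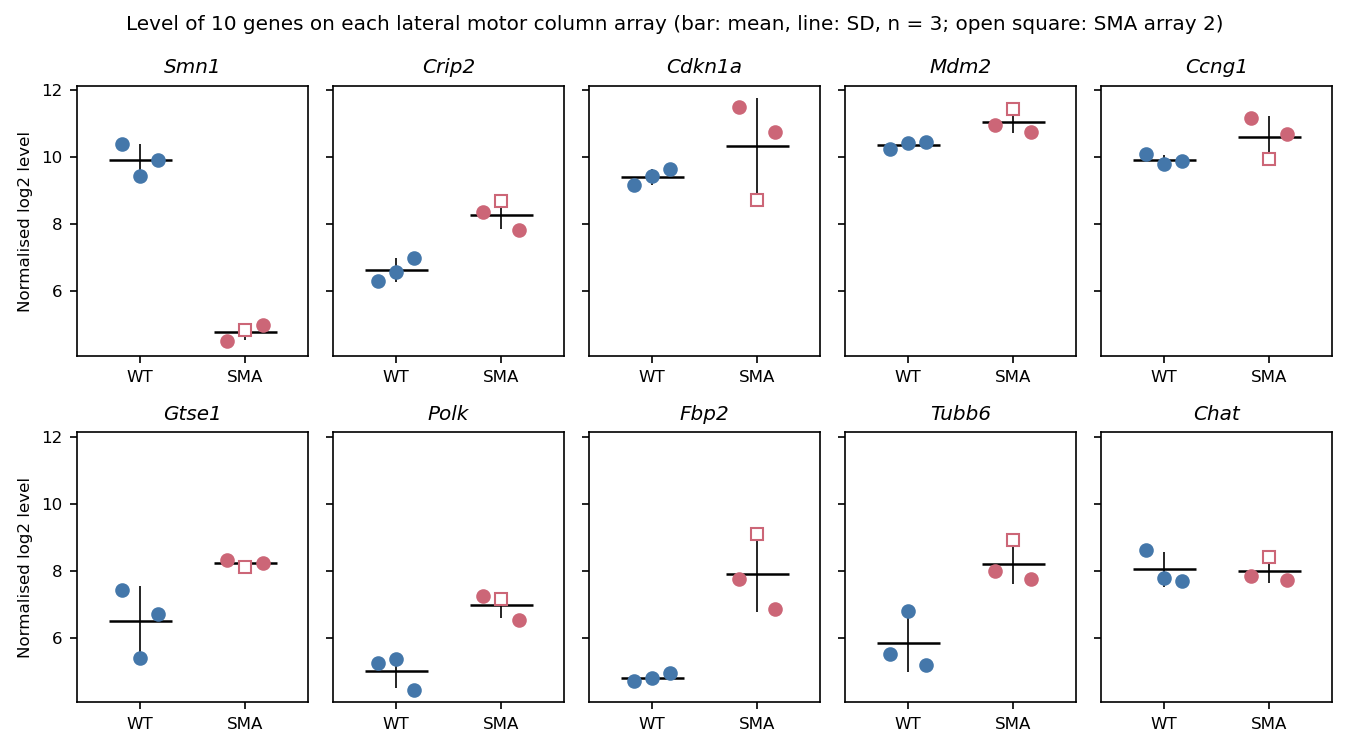
Normalised log2 level of 10 genes on each LMC array, by genotype, with the group mean (bar) and SD (line, n = 3). The open square is SMA array 2. Smn1 lies near 5 on every SMA array, Crip2 is higher on all 3 SMA arrays than on any WT array, and Cdkn1a is higher on SMA arrays 1 and 3 only.

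Genes of the p53 pathway lay mostly above WT in the SMA lateral column, and 1 of them, Cdkn1a, passed the threshold once SMA array 2 was left out. Of 44 genes listed, 41 had a probe and 30 were tested. Of the 41, 31 lay above 0 with a median of 0.37, beside 10411 of 19057 and 0.03 over all genes with a probe. Of the 30 tested, 21 lay above 0 with a median of 0.46, and 11 reached an unadjusted p under 0.05, all higher, where 3.13% of all genes tested did. The arrays did not overlap for 9 members, all higher, where 5.85% of all genes tested were higher without overlap. None of the 30 passed with all 6 arrays. Without SMA array 2, 25 of the 30 lay above 0 (median 0.41), and over the 41 with a probe 35 did (median 0.39). The median member stood 0.61, 0.54 and 0.40 above its WT mean on SMA arrays 1 to 3, beside -0.003, 0.16 and 0.02 for the median of all genes tested, so no single SMA array set the direction. Members that were above background mainly in SMA entered the tested set because of that, which is why the count over all probes is given.

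Among the regulators of p53, Mdm2, the ubiquitin ligase that degrades it, stood at 10.24, 10.41 and 10.45 in WT and at 10.97, 11.44 and 10.76 in SMA. The groups did not overlap, and the difference was 0.69 (SE 0.23, adjusted p = 0.708). Its relative Mdm4, which blocks the activating domain of p53, stood at 6.22, 7.11 and 7.33 in WT against 8.84, 9.49 and 7.63 in SMA, a difference of 1.77 (adjusted p = 0.709). Both genes were lowest in SMA on array 3, which still exceeded every WT array.

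Cdkn1a, the cell cycle inhibitor p21 and the best known p53 target, stood at 9.16, 9.45 and 9.63 in WT and at 11.50, 8.72 and 10.74 in SMA. SMA arrays 1 and 3 lay above every WT array, while SMA array 2 lay below them all. The difference was 0.91 (SE 0.40, adjusted p = 0.709) with all arrays and 1.71 (adjusted p = 0.00235) without SMA array 2. Cdkn1a passed in 2 of 23 alternative settings, that one and the one with array weights. It did not pass with SMA array 2 left out and only the other LMC arrays in the model. A second probe of Cdkn1a, above background on all 6 arrays, gave -0.01 with and 1.22 without that array. Ccng1, which encodes cyclin G1, behaved alike, at 10.09, 9.78 and 9.89 in WT and 11.18, 9.95 and 10.68 in SMA, where array 2 alone fell within the WT range. Its difference was 0.68 (SE 0.29, adjusted p = 0.709), and 1.01 without that array (adjusted p = 0.529). Further probes of Ccng1, above background on all 6 arrays, gave 1.01 and 0.19.

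Gtse1, which binds p53 and microtubules in dividing cells, stood at 7.41, 5.40 and 6.72 in WT and at 8.32, 8.12 and 8.22 in SMA. Every SMA array exceeded every WT array, and the SMA values lay close together while the WT values were spread. The difference was 1.71 (SE 0.49, adjusted p = 0.617), and its 2 weaker probes gave 1.12 and 0.70. Polk, DNA polymerase kappa, which copies past damaged bases, was above background on 1 WT and 3 SMA arrays, at 5.23, 5.36 and 4.44 against 7.23, 7.14 and 6.54. It stood 1.96 higher in SMA (SE 0.41, adjusted p = 0.110), the smallest p of the p53 list. Perp, a membrane protein of p53-dependent cell death, was 1.01 higher (adjusted p = 0.709), the kinase gene Plk2 0.72 higher and the zinc finger gene Zfp365 0.74 higher (adjusted p = 0.626), each without overlap between the genotypes. A second probe of Zfp365 gave 0.13. Whether these genes differ between the columns was tested, and none passed. The LMC difference minus the MMC difference was -1.76 for Gtse1 (adjusted p = 0.448), -1.14 for Ccng1 (adjusted p = 0.407), -0.83 for Cdkn1a (adjusted p = 0.648) and 1.27 for Polk (adjusted p = 0.512). In MMC, limma called Gtse1 (3.47, adjusted p = 0.00051), Ccng1 (1.83, 0.00188) and Perp (2.38, 0.0126) higher in SMA. It also called Cdkn1a (1.74, 0.0311) and Plk2 (1.43, 0.0341) there, but not Mdm2 (0.86, 0.0607) or Polk (0.69, 0.450). The median of the 30 members was 0.79 in MMC, beside 0.46 in LMC.

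**Figure D3:**
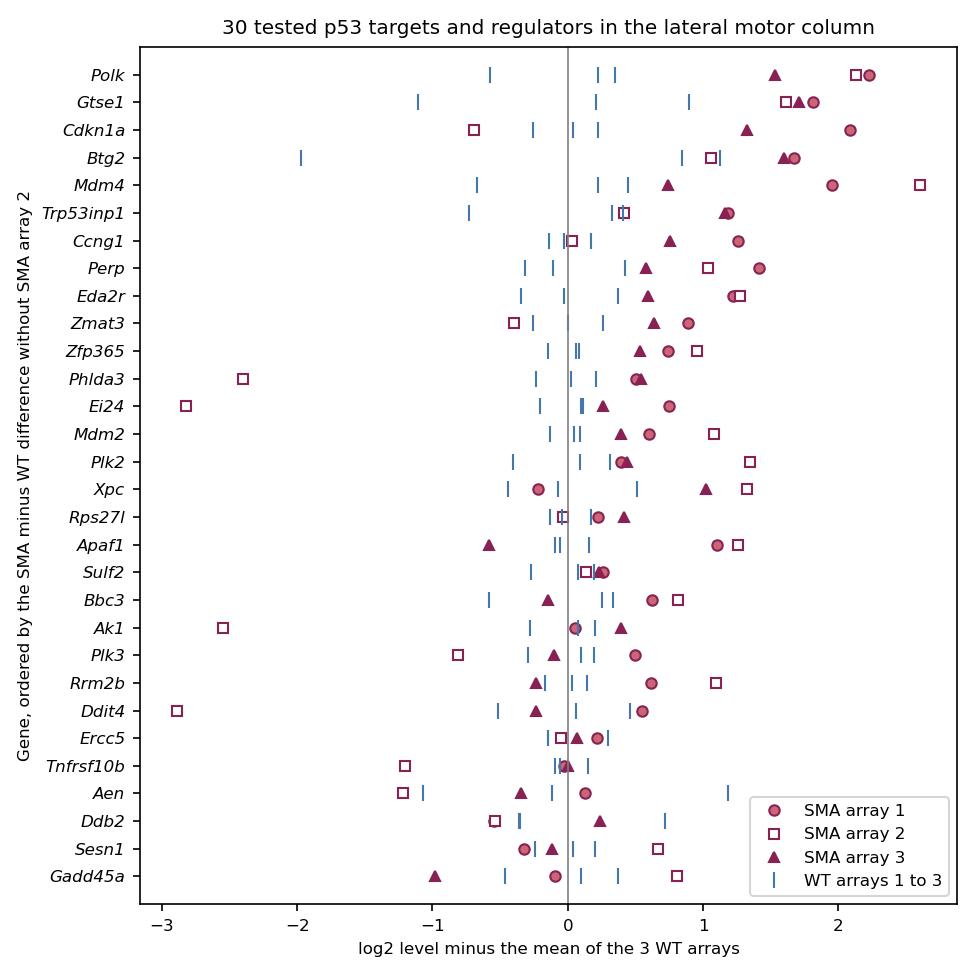
Log2 level minus the WT mean for each of the 30 tested p53 targets and regulators on SMA arrays 1, 2 and 3 (circle, open square, triangle) and on the WT arrays (ticks), ordered by the difference without SMA array 2. Polk, Gtse1 and Mdm4 are high on all 3 SMA arrays, whereas Cdkn1a, Zmat3, Phlda3, Ei24, Ak1 and Ddit4 are low on SMA array 2.

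Since most members of the p53 list lay above 0, their promoters were searched for the p53 response element, a pair of abutting half-sites. A match needed the CNNG core of both half-sites and allowed at most 3 mismatches over its 20 bases, on either strand, since the element reads the same both ways. Of the 30 tested members, 23 had a window in the RefSeq promoter table, of 250 bases before and 50 after a start site (GRCm38.p6); Perp, Zmat3, Tnfrsf10b, Trp53inp1, Ddb2, Xpc and Rrm2b had none. A match was found in 8 of the 23 (34.8%), beside 1.91% of the 7364 tested genes with a window and 1.38% of all 32851 windows. The list was made of known p53 targets, so this share describes the list and not the arrays. Of the 8 members with a match 7 lay above 0 in SMA (median 0.56), and of the 15 without 9 did (median 0.21). Without SMA array 2 these medians were 0.48 and 0.42. The 4 matches with the fewest mismatches that lie before the start site are shown, to let the element be read in genes whose levels are given here, with the element in capitals and the 250 bases ending at the start site.
Cdkn1a, chr17:29090729-29090978, plus strand, 1 mismatch: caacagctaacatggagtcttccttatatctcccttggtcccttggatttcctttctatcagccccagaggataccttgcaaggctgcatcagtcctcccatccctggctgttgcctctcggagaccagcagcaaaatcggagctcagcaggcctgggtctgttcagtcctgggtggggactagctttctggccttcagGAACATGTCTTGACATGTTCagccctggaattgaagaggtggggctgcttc
Ccng1, chr11:40755287-40755536, minus strand, 1 mismatch: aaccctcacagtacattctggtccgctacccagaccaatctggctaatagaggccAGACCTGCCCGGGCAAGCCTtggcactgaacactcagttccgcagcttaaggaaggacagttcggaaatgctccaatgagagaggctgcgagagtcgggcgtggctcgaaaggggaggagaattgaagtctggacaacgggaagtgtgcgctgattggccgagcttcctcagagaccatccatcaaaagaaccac
Rps27l, chr9:66946163-66946412, plus strand, 1 mismatch: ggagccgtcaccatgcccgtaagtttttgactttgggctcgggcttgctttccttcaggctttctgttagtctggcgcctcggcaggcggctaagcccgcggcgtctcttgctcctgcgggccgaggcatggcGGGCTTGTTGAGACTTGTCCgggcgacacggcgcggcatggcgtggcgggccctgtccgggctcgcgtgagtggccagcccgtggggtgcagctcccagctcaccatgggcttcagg
Zfp365, chr10:67912663-67912912, minus strand, 2 mismatches: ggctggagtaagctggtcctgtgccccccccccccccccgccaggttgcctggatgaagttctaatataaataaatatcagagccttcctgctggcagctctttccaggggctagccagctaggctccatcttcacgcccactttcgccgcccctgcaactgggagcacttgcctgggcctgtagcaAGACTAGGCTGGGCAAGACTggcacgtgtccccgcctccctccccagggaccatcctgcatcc
The Cdkn1a window lies at the upstream of its start sites in the table, and the window of its other start site held no match. The Rps27l window belongs to the downstream of its start sites in the table. It lies wholly after the other start site, whose own window held no match. Rps27l, which encodes a ribosomal protein relative induced by p53, differed by 0.20 (adjusted p = 0.931). A match says only that these letters are present.

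Other genes higher in SMA without overlap did not pass. Fbp2, the muscle form of fructose-1,6-bisphosphatase, an enzyme of gluconeogenesis, was not above background on any WT array and stood at 7.75, 9.10 and 6.86 in SMA. It was at least 6.23-fold higher, with an adjusted p of 0.0518, and 0.310 without SMA array 2. It passed in 6 of 22 alternative settings. Tubb6, a beta tubulin, stood at 5.50, 6.81 and 5.20 in WT and 7.98, 8.91 and 7.75 in SMA. All 3 SMA arrays lay above WT, by 2.38 on average (SE 0.48, adjusted p = 0.110). Tph2, the enzyme that starts serotonin synthesis in neurons, was 1.53 higher (adjusted p = 0.391), at 6.67, 6.73 and 7.69 in SMA.

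Several of the remaining genes were above background in SMA and on no WT array. Zcchc2 was at least 3.75-fold higher, 4921507P07Rik at least 2.52-fold, Ints2, a subunit of the Integrator complex that processes small nuclear RNA, at least 2.37-fold, and Slc16a10, a transporter of aromatic amino acids, at least 1.88-fold. The ciliary genes Tctn2 and Wdpcp were at least 2.03-fold and at least 1.76-fold higher. Weaker probes of Wdpcp gave 0.33 and -1.12, the latter above background on 1 WT and 0 SMA arrays. Foxa3, a forkhead factor above background on 2 WT arrays as well, differed by 1.25. The adjusted p-values of these 7 lay between 0.110 and 0.298. Without SMA array 2 their differences ranged from 0.82 (Wdpcp) to 2.05 (Zcchc2). Their sign could not change, as the 7 were chosen for groups without overlap.

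Lower in SMA, after Smn1, no gene passed. Cux1, a homeobox factor of neurons, stood at 8.45, 7.81 and 7.98 in WT and at 6.59, 5.27 and 6.46 in SMA. The groups did not overlap, and the difference was -1.97 (SE 0.45, adjusted p = 0.197). Trpm6, a channel for magnesium, was at 9.15, 6.42 and 6.48 in WT and not above background on any SMA array, which made it at least 3.71-fold lower (adjusted p = 0.207). WT array 1 was well above the other WT arrays. Zhx3, a zinc finger and homeobox repressor, differed by -1.29 and Maea, a subunit of a ubiquitin ligase, by -2.21.

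The cyclophilin gene Ppic differed by -1.89, the mitochondrial ribosome factor gene Rbfa by -0.85, the sulfotransferase gene Gal3st3 by -1.34 and Gm10052 by -0.73. Rdh10, the retinol dehydrogenase that begins retinoic acid synthesis, was at least 1.21-fold lower and 4930415L06Rik at least 1.39-fold. Map1b, a microtubule-associated protein of growing axons whose gene lies near Smn1, stood at 12.71, 12.73 and 12.67 in WT and 12.55, 12.24 and 12.37 in SMA. The gap was small beside that of the other genes but free of overlap, at -0.32 (SE 0.09, adjusted p = 0.626). Its 4 further probes, all above background on all 6 arrays, gave 0.01, -0.01, -0.11 and -0.46, and -0.07, 0.06, -0.06 and 0.01 without SMA array 2. A second probe of Ppic gave -0.22. A weaker probe of Rbfa, above background on 0 WT and 2 SMA arrays, went the other way. It gave 0.50, and 0.94 without SMA array 2. These genes were chosen for groups without overlap on the probe used for the test. Leaving out SMA array 2 could therefore not change the sign of their differences. Without that array Maea went to -1.73, Ppic to -1.18 and Gm10052 to -0.38.

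The other members of the machinery that SMN works in gave different results with and without SMA array 2. Of 24 tested genes of the SMN complex and of small nuclear ribonucleoprotein (snRNP) assembly, Smn1 included, 5 lay above 0 with all arrays (median -0.36) and 12 without that array (median 0.00). The median member stood at -0.08, -0.91 and 0.06 from its WT mean on SMA arrays 1 to 3. Snrpd2, one of the Sm ring proteins, stood at 10.41, 10.64 and 10.78 in WT and at 10.53, 5.29 and 10.74 in SMA. Only array 2 was low, and the difference went from -1.76 (adjusted p = 0.709) to 0.02 without it. Snupn, the adaptor that brings assembled snRNPs into the nucleus, was lower on all 3 SMA arrays, at 7.05, 6.53 and 6.79 against 7.97, 8.09 and 7.37, a difference of -1.02 (adjusted p = 0.709). Wdr77, a partner of the methyltransferase that modifies Sm proteins, stood 0.36 higher. A list of the minor spliceosome, the machinery for a rare class of introns, together with Tmem41b (Stasimon), a membrane protein gene, gave 8 tested genes. An unadjusted p under 0.05 was reached by 1 of the 8, beside 3.13% of all genes tested higher and 3.71% lower. With 8 genes this count was not read as a result for the list. The 1 gene was Rnpc3, at 5.83, 5.32 and 5.58 in WT and 6.19, 7.10 and 6.20 in SMA (difference 0.92, adjusted p = 0.709, and 0.62 without array 2).

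Of the 8259 genes that the other 5 arrays all detected, 342 were set apart on SMA array 2. Of the 342, 212 were not above background on array 2 at all. The largest gap was that of Rpl27, a ribosomal protein gene named for that reason, at 4.69 on array 2 against 11.18 or more on the others. They held 14 of 38 genes of cytosolic ribosomal proteins, 7 of 38 of oxidative phosphorylation and 5 of 23 of the snRNP list. Of the 337 genes lower at an unadjusted p under 0.05, 111 were among them.

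Several lists that were low on this array alone lay near 0 without it. Of 39 ribosomal protein genes tested, 9 lay above 0 with all arrays (median -0.43) and 23 without it (median 0.05). Rpl35, at 11.86, 11.93 and 11.91 in WT, stood at 11.76, 8.50 and 11.78 in SMA, and Rps15 at 10.93, 6.60 and 11.41 against 11.22 or more in WT. For 32 replication-dependent histone genes the median went from -0.33 to -0.01. H3c6 and H3c7 were the exceptions among the examples, at -0.75 and -1.23 without array 2, where neither passed. For 38 genes of oxidative phosphorylation it went from -0.11 to 0.01, and Ndufa2 and Ndufa9, subunits of complex I, from -1.26 and -1.03 to -0.02 and -0.05. The median cholesterol synthesis gene stood at 0.07, -0.64 and -0.35 from its WT mean on SMA arrays 1 to 3. On WT arrays 1 to 3 it stood at 0.05, 0.22 and -0.27, so WT array 3 was low as well. The median difference of the 15 genes went from -0.28 to -0.22. Sqle, an oxygenase of that pathway, was below WT on all 3 SMA arrays (9.18, 8.54 and 9.38 against 9.76 or more), while Fdps, a prenyl synthase, was far lower on array 2 than on the others.

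**Figure D4:**
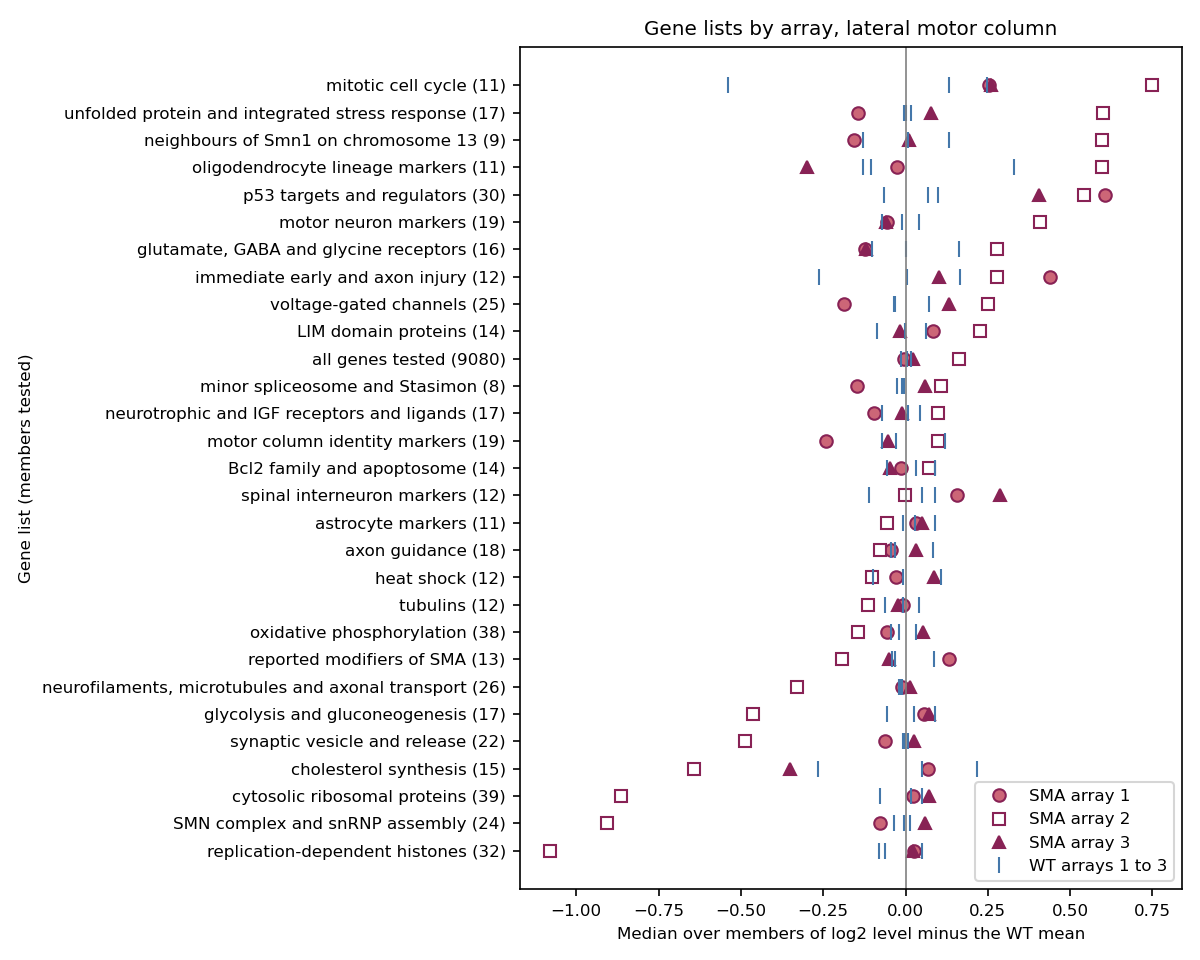
For each gene list with at least 8 tested members, the median over its members of the log2 level minus the WT mean, on SMA arrays 1 to 3 (circle, open square, triangle) and the WT arrays (ticks). The p53 list lies between 0.40 and 0.61 on all 3 SMA arrays, whereas the snRNP, ribosomal and histone lists lie between -0.87 and -1.08 on SMA array 2 and near 0 on the other arrays.

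**Figure D5:**
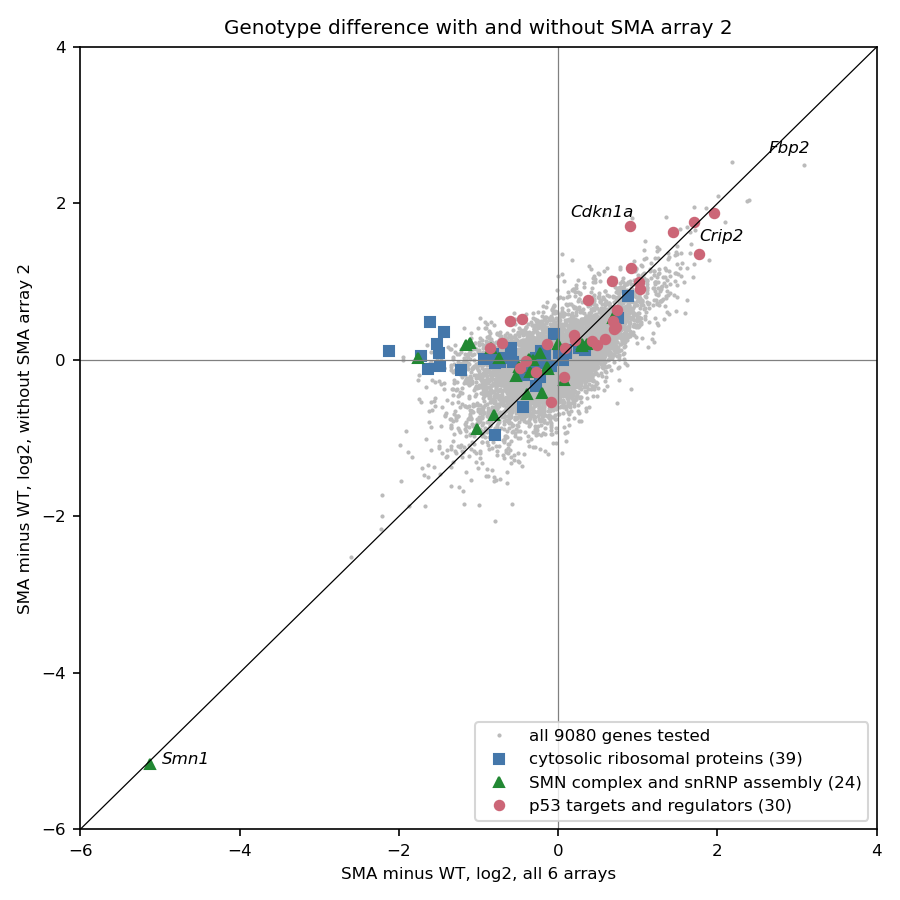
SMA minus WT difference of each of the 9080 genes tested in LMC with all 6 arrays (horizontal) and without SMA array 2 (vertical), on a log2 scale, with 3 gene lists marked and the line of equality. Many ribosomal and snRNP genes below 0 on the horizontal axis lie near 0 on the vertical axis, but Smn1 (-5.16), Snupn (-0.89), Lsm11 (-0.71) and Rpl4 (-0.96) among others do not, while most p53 genes stay above 0 on both.

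Genes of motor neuron identity did not pass in either direction. Of 19 tested motor neuron markers, 13 lay above 0 with all arrays (median 0.11) and 5 without SMA array 2 (median -0.11), beside medians of 0.03 and 0.01 over all genes tested. Prph, the intermediate filament peripherin, stood at 11.74, 11.74 and 11.47 in WT and 11.61, 7.44 and 11.51 in SMA. Slc18a3, the vesicular acetylcholine transporter, and Sncg, a synuclein, were likewise low on array 2 alone, and their differences of -1.21 and -1.22 became -0.22 and 0.14 without it. Calcb, a calcitonin gene-related peptide, was lower on all 3 SMA arrays, at 10.24, 9.97 and 10.10 against 10.33, 10.49 and 10.68, without overlap, but the difference of -0.39 was near its SE of 0.32 (adjusted p = 0.798).

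Of 19 tested genes of column identity, 9 lay above 0 (median 0.00), and 3 were lower at an unadjusted p under 0.05, where 3.71% of all genes were. Etv1, an ETS factor of motor pools, stood at 8.28, 7.59 and 7.92 in WT and at 5.69, 6.63 and 7.43 in SMA. Every SMA array lay below every WT array, and the difference was -1.35 (SE 0.47, adjusted p = 0.709) and -1.37 without array 2. Foxp1 stood at 8.44, 8.67 and 8.30 in WT and at 7.75, 5.97 and 8.07 in SMA, also without overlap. Its difference was -1.21 (adjusted p = 0.709) with array 2 and -0.56 without it. Hoxa9, a homeobox gene of the thoracic and lumbar cord, and Aldh1a2 differed by -1.35 and -0.92, and without array 2 by -0.83 and -0.30.

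Neurofilaments, microtubule proteins and motors of axonal transport gave 26 tested genes, with 11 above 0 (median -0.04) and none past the threshold. Nefm, the medium neurofilament, stood at 14.61, 14.51 and 14.23 in WT and 14.43, 12.70 and 14.01 in SMA, and Dync1h1, the heavy chain of cytoplasmic dynein, at 11.12, 11.01 and 10.85 against 10.83, 8.34 and 10.55. In both the low value was array 2, without which the differences of -0.74 and -1.08 were -0.23 and -0.30. Tuba1b, an alpha tubulin, went from -1.16 to -0.01. Of 22 genes of synaptic vesicles, 9 lay above 0 (median -0.16), and 10 without array 2 (median -0.03). Syt1, the calcium sensor of vesicle release, differed by 0.64 and Rab3a, a vesicle GTPase, by -0.28, neither past the threshold. A second probe of Syt1, above background on all 6 arrays, gave -0.15, and -0.40 without array 2. A second probe of Rab3a gave -0.33, and 0.04 without array 2. Of 25 voltage-gated channels 15 lay above 0 (median 0.10), but 11 did without array 2 (median -0.05). Kcnc1, a fast potassium channel, was 1.01 higher without overlap (adjusted p = 0.709), and 0.52 higher without array 2.

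Apoptosis genes counted as p53 targets above, Perp among them, were not in the list of the Bcl2 family and the apoptosome. Of 14 tested genes of that list, 6 lay above 0 (median -0.08). An unadjusted p under 0.05 was reached by 0 of the 14, beside 3.13% of all genes tested higher and 3.71% lower. Groups without overlap were seen for 0 of the 14, beside 5.85% of all genes tested higher and 4.49% lower. Among 14 genes, counts of 0 lie near these shares. Bid, a promoter of cell death, differed by -0.85 (adjusted p = 0.734) and Casp9, the initiator caspase, by 0.30. Of 17 genes of the unfolded protein response 12 lay above 0, with a median of 0.16, which was 0.60 on SMA array 2 and -0.01 without that array. Herpud1, a gene of that response, was 0.51 higher (adjusted p = 0.709). Of 12 heat shock genes 4 lay above 0 (median -0.06), but 8 did without array 2 (median 0.04). Hspa1a, an inducible chaperone, was at least 1.68-fold higher (adjusted p = 0.651). Of 13 genes reported to modify SMA 6 lay above 0 (8 without array 2), and Uchl1, a ubiquitin hydrolase of neurons, was low on array 2 alone, with -1.33 becoming 0.03. Of 9 genes near Smn1 on chromosome 13, 5 lay above 0, and Rad17, a checkpoint gene, was 0.53 higher without overlap (adjusted p = 0.709).

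Immediate early and axon injury genes gave 12 tested members, 9 above 0 with a median of 0.37 (0.31 without SMA array 2). Over all 21 with a probe 14 lay above 0, with a median of 0.26 (0.19 without that array). Fos, an early response factor, stood at 5.46, 5.94 and 7.10 in WT and 7.39, 8.36 and 7.15 in SMA. The groups nearly touched, at 7.10 and 7.15, and the difference was 1.47 (SE 0.46, adjusted p = 0.662). Its relative Fosb was at least 1.22-fold higher, above background on 0 WT and 3 SMA arrays (adjusted p = 0.662).

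Markers of other cell types were read beside these results. Of 13 microglia and macrophage markers with a probe 5 were tested, and 3 lay above 0 and 2 below (4 and 1 without SMA array 2). Their median difference was 0.69 (0.89 without that array). Over all 13 the median was 0.21 (0.44 without that array). Ctss, a lysosomal protease, stood at 6.17, 7.02 and 6.35 in WT and 7.70, 7.93 and 7.25 in SMA, and P2ry12, a purine receptor of microglia, at 6.30, 5.53 and 4.92 against 6.32, 6.75 and 6.75. Neither pair overlapped, and neither passed (adjusted p = 0.709 for both). P2ry12 was above background on 2 WT and 3 SMA arrays. Tmem119, another microglial marker, went the other way, at -0.19 (-0.48 without array 2), above background on 3 WT arrays and 1 SMA array. The summed normalised signal of the list, on a linear scale, was 322 to 754 in WT and 617 to 1143 in SMA, and Cx3cr1 and Itgam were above background on 0 of the 6 arrays. The part of these cells in the p53, Fos and Crip2 results was not tested. Of 4 tested red blood cell genes 0 lay above 0 (median -1.14, and -0.33 without array 2), with a summed signal of 1128 to 3532 in WT and 423 to 2790 in SMA. Hba-a1 and Hbb-bt, which encode globins, differed by -1.16 and -1.77, and by -0.84 and -0.25 without array 2. Of 11 oligodendrocyte lineage genes 3 lay above 0 (median -0.15, and -0.33 without array 2), with Gpr17, a receptor of maturing precursors, 0.89 higher and Cnp, a myelin enzyme, at -0.59 (-0.33 without array 2). Of 11 astrocyte genes 7 lay above 0 (median 0.01), Aqp4 at 0.44 among them. Of 6 endothelial and pericyte genes 2 lay above 0 (median -0.31, and -0.13 without array 2), and Itm2a was at least 1.52-fold lower (adjusted p = 0.710). Of 12 spinal interneuron markers 7 lay above 0 (median 0.06, and 0.19 without array 2), and Calb2, the calcium-binding protein calretinin, was 0.79 higher (adjusted p = 0.722), and 0.21 higher without array 2. None of these genes passed.

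The effect of genotype in LMC was tested against that in MMC over 9697 genes, and 2 passed (0.0206%). Ranbp3l, a relative of a Ran-binding export factor, stood at 4.47, 4.80 and 5.87 in WT LMC and 6.03, 7.30 and 5.53 in SMA LMC, where the groups overlapped. In MMC it went from 8.06, 7.76 and 10.33 in WT to 4.53, 4.89 and 4.75 in SMA, below background on all 3. The difference of the differences was 5.23 (SE 0.83, adjusted p = 0.0223). Dennd3, an exchange factor for a Rab GTPase, was above background on the 3 SMA arrays of MMC and on no WT array of MMC and no LMC array, so its contrast of -2.13 (SE 0.37, adjusted p = 0.0311) came from MMC, at 4.57 ± 0.20 in WT and 6.81 ± 0.70 in SMA (SD, n = 3). With only the 12 motor column arrays in the model neither passed (adjusted p = 0.618 for both). Without SMA LMC array 2 Ranbp3l passed (adjusted p = 0.0368) and Dennd3 did not (0.0632). Neither passed with the authors' deposited normalized values (adjusted p = 0.127 for Ranbp3l and 0.0976 for Dennd3). The same held without WT LMC array 1, WT LMC array 2 or SMA LMC array 1. Dennd3 alone was also lost with 75th percentile scaling (adjusted p = 0.124) and with the replicate block (0.170), among others. The third gene by p, the elongation factor gene Tcea3, had an adjusted p of 0.0691. Against the mean of DRG and raphe, 0 of 11048 genes passed in limma (0%), and 563 had an unadjusted p under 0.05. The smallest p there belonged to Polk (2.65, adjusted p = 0.166), Crip2 (1.54, adjusted p = 0.166) and Tubb6 (2.91, adjusted p = 0.202). Polk differed by 1.96 in LMC, by 0.18 in DRG and by -1.55 in the raphe, so part of its contrast came from the raphe. Tubb6 stood 1.69 higher in SMA in MMC, and differed by -0.52 in DRG and by -0.56 in the raphe.

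How many genes pass in LMC depends on single arrays. The count went from 2 to 24 without SMA array 3, to 4 without SMA array 1 and to 3 without SMA array 2, which brought in Cdkn1a. Smn1 was called in each of these, and Crip2 too.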

How the data were processed

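Samples were grouped by their titles. The authors deposited, per the file headers, an average signal intensity and a detection p-value per probe and array, not normalized (GenomeStudio, per the submitters' processing notes, version not given). The authors' deposited normalized log2 values served as an alternative; their ranks matched the intensities within each array (rank correlation 1). The sources used here do not give the authors' further steps. No column was left unused.

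Intensities of all 24 arrays were corrected with limma's nec (normexp from detection p-values, offset 16), quantile normalized and taken to log2 (limma 3.58.1, R 4.3.3). Of 45281 probes, 34885 had 1 gene symbol, and 10396 had none or several and were not used. A gene was read from its brightest probe by mean level over all arrays. A moderated limma model with a mean-variance trend was fitted over the 8 groups (11199 genes, 16 residual degrees of freedom), with Benjamini-Hochberg adjustment over the genes tested in each comparison. The number of arrays limits the precision, and p-values measure the spread between these samples.

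Named genes were those past the threshold with or without SMA array 2, the 12 of smallest p in each direction whose groups did not overlap, 10 fixed genes, up to 4 members of each described list by smallest p, and the leading genes of the differences between tissues. Exceptions, chosen after their values were seen or as defining markers, are Rpl27, Rpl4, Lsm11, Tmem41b, Isl1, Mnx1, Mbp, Gfap, Avil, Cx3cr1, Itgam, Xist, Rps27l, the p53 members with low values on SMA array 2 and those with no promoter window. Mdm4 is a further exception, named outside these rules. The members and lists were chosen with earlier results of these data known. The model was tested on simulated data. Alternatives covered background, scaling, filter, probe choice, moderation, array weights, the arrays fitted, the replicate number and each array left out. The moderation over LMC genes and the fit to 5 LMC arrays were added after seeing the data.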

Additional observations from a re-analysis of the deposited data

Results flagged for a closer look

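Ranbp3l was picked out because its SMA minus WT difference in LMC minus that in MMC passed the threshold, at 5.23 on the log2 scale. Dennd3 was picked out for the same reason, at -2.13, with signal above background only on the 3 SMA arrays of MMC among the 12 motor column arrays.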

How the results depend on the processing

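The number of genes past the threshold in LMC, 2 in the reported model, was 4 with an offset of 50 or with array weights, and 1 with quantile normalization over the 6 LMC arrays, with the 12 motor column arrays, with the 6 LMC arrays alone (also less SMA array 2), with detection on all 6 arrays and with the replicate block. It was 2 to 24 with 1 array left out. The LMC minus MMC count, also 2, was 4 with an offset of 50 or array weights, 0 with the 12 motor column arrays or without the mean-variance trend, 1 at a detection p under 0.01, 5 with the mean of detected probes and 0 to 4 with 1 array left out. The count against DRG and raphe was 0 to 5 with 1 array left out. With the replicate block Smn1 alone passed in LMC. Same-numbered arrays had correlations of deviations of 0.060, 0.069 and 0.161, not all over 0.1, so the numbers were not taken to pair the samples, although each array correlated best with its own number. Chat changed sign without 1 array (-0.24 to 0.25, with 0.25, 0.03 and 0.09 without WT array 1, SMA array 1 and SMA array 3). Without SMA array 2 Snrpd2 was at 0.025, Sncg at 0.14 and Uchl1 at 0.033, also with the LMC arrays alone, and with 1 array left out they ranged from -2.70, -1.95 and -2.04 to these values. The cause was not tested. The median of the p53 list lay between 0.22 and 0.64 over 15 alternatives. Genes near background have only bounds, and 3 arrays a group limit the precision.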
